A study of Mus musculus with 36 samples.

Results

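The genes of de novo lipogenesis, the making of new fatty acids from non-lipid carbon, were described across the regenerating livers of young and old mice. They were the 10 symbols Srebf1, Fasn, Acaca, Acacb, Acly, Scd1, Elovl6, Thrsp, Me1 and Mlxipl, chosen by name, and all 10 were found among the 21955 rows of each count table. The livers came from C57BL/6JN mice, an inbred laboratory strain, of 4 months (young) or 18 months (old). Tissue was sampled before regeneration and at 5 later time points that the labels call 48, 72, 96, 120 and 240, with n = 3 libraries for each of the 12 groups and 36 libraries in all. The labels name no genetic change and no drug. They give no unit for the time points and do not say how regeneration was induced, and they name old mice as the treated group.

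In the liver, de novo lipogenesis is known to be high after a carbohydrate meal and low in fasting. Citrate exported from mitochondria is cleaved to acetyl-CoA, which is carboxylated to malonyl-CoA and built into palmitate with reducing power from NADPH, and palmitate is then lengthened and desaturated. Insulin drives the programme through the transcription factor SREBP-1c, made by Srebf1, and sugars drive it through ChREBP, made by Mlxipl. Thrsp encodes Spot 14, a small protein known to track lipogenesis and to respond to thyroid hormone.

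Values are CPM, counts per 1000000 counts of the library, with library totals scaled by the TMM method. The deposited totals ranged from 2328233 to 6034446 counts per library (median 4439170). A gene was called where edgeR's quasi-likelihood test over 13436 genes gave an adjusted p under 0.05, and log2 fold changes are given with the standard error that the F statistic implies. The biological coefficient of variation within a group was highest, 40.6%, for the old libraries at 48, and 19.4% to 27.2% elsewhere. In 12 libraries, 1 in each group, Y-linked transcripts were present. The labels give no sex, and the members' values within each part of that split stand below. Hepatocyte markers of the labelled tissue summed to 17180 to 26909 CPM over 7 genes in every library. Of the 4 defining adipocyte markers, Adipoq, Lep and Retn were at 0 to 1.70 CPM in 35 libraries. In young mice at 96, replicate 1, Adipoq reached 6.20 CPM, and Adrb3 was at 0.203 to 15.0 CPM over all libraries. These are bulk samples, in which fewer cells of a type and less RNA per cell cannot be told apart.

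All 10 genes are protein-coding and lie on 6 chromosomes in GENCODE release M21 of the mouse genome (GRCm38). Srebf1 (chr11:60199089-60222581), Acly (chr11:100476353-100528000) and Fasn (chr11:120805846-120824547) are on the minus strand of chromosome 11, and Acaca (chr11:84129672-84401651) is on its plus strand. Acacb (chr5:114146535-114250761) and Mlxipl (chr5:135089890-135138382) are on the plus strand of chromosome 5. Elovl6 (chr3:129532355-129638495) is on the plus strand, whereas Thrsp (chr7:97412938-97417730), Me1 (chr9:86581371-86695953) and Scd1 (chr19:44394455-44407879) are on the minus strand. Exons of Elovl6, Me1, Mlxipl and Srebf1 overlap exons of other annotated genes over 0.529% to 4.24% of their length. Whether the counting used strand is not given in the sources used here, so reads in those stretches cannot be assigned with certainty. Scd1 has near copies, of which Scd2 reached at most 68.3 CPM, Scd3 4.23 CPM and Scd4 0.486 CPM in any library.

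Since all 10 genes were lower at 48, 4 of their promoters are shown, those of the synthase Fasn, of the most strongly falling gene at 48, Thrsp, of Acly at the head of the pathway, and of the regulator Mlxipl. Each line gives the 250 bases upstream of a RefSeq transcript start (build GRCm38.p6), read 5′ to 3′ on the gene's strand. Capitals mark matches, on either strand, to 4 motifs searched for. These were the letters CCAAT, the E-box with letters CACGTG, the GC box with letters GGGCGG and a core of SREBP sites with letters TCACNCCAC.
Fasn, chr11:120824548-120824797, minus strand: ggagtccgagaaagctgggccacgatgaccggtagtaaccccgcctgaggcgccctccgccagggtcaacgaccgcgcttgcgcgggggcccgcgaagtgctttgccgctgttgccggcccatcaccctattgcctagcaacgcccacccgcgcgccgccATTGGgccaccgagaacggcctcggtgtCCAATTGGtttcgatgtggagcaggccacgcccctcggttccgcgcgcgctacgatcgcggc
Thrsp, chr7:97417551-97417800, minus strand: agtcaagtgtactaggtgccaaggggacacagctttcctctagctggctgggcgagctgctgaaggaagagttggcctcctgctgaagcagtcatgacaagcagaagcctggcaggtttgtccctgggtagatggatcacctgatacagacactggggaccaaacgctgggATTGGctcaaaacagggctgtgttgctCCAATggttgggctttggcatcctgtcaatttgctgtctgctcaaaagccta
Acly, chr11:100528001-100528250, minus strand: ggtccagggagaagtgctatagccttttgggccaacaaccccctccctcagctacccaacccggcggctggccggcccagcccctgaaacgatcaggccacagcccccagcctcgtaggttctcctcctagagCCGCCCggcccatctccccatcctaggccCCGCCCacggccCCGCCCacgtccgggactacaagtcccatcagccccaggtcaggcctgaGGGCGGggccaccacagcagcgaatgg
Mlxipl, chr5:135106641-135106890, plus strand: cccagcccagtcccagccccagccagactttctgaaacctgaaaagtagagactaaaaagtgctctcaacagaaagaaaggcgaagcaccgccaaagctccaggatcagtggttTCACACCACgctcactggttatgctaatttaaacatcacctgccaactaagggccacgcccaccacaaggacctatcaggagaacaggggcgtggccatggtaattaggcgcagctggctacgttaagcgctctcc
The Fasn window held CCAAT at position -62 on its own strand and at -90 and -59 on the other strand, counted from the start, and the matches at -62 and -59 overlap. The Thrsp window held it at -52 on its own strand and at -79 on the other. Scd1 was not matched. The other 9 members had 13 windows in all. Of these 13, 7 had a CCAAT match (in 6 members), 5 a GC box (in 4 members), 1 the E-box and 1 the SREBP core. The SREBP core was in the Mlxipl window shown, at an internal start and chosen for that match. The window at the first Mlxipl start, not shown, held the E-box, CCAAT and GC boxes. Over all 32851 RefSeq windows of this length the shares were 33.8%, 32.7%, 6.02% and 1.05%. These letters are a description of the windows and mark no site of binding.

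Before regeneration, Scd1 was the most abundant member when counts were divided by exon length (the union of all annotated exons). Scd1 encodes the stearoyl-CoA desaturase of the liver, and it stood at 3532 ± 1145 CPM per kb (SD, n = 3) in young mice and 6074 ± 1534 in old mice. Thrsp followed at 681 ± 97.7 in young and 774 ± 240 in old mice, and Fasn at 289.7 ± 16.8 and 461 ± 76.1 CPM per kb. These 3 genes kept that order in both ages, and their libraries did not overlap in either age. In young mice the others ran from Srebf1 (103 CPM per kb) through Elovl6 (91.1), Mlxipl (66.8), Acly (61.1), Me1 (37.5) and Acacb (14.6) to Acaca (10.02). Within that order the neighbours Srebf1 and Elovl6, Mlxipl and Acly, and Acacb and Acaca overlapped in their 3 libraries. Together the 10 genes took 1.87% to 2.91% of all counts in young and 3.00% to 4.51% in old libraries. Most of this was Scd1, which alone took 1.20% to 2.21% in young and 2.15% to 3.53% in old libraries.

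The first question the design addresses is how the genes changed after regeneration began. At 48, all 10 members were called lower than before in young mice, against 21.9% of all 13436 genes called in either direction and 9.79% called lower. All 10 were also called lower in old mice at 48, where 24.1% of genes were called in either direction. The median log2 fold change of the members was -1.70 in young and -2.71 in old mice, beside -0.01 and 0.01 over all genes. No member overlapped between 48 and before in either age, whereas 20.8% of all genes lay wholly lower at 48 in young and 16.6% in old mice. The share of counts taken by the 10 genes was 0.208% to 0.289% in young and 0.167% to 0.525% in old mice. Scd1 alone took 0.0601% to 0.115% in young and 0.0552% to 0.386% in old mice.

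**Figure D1:**
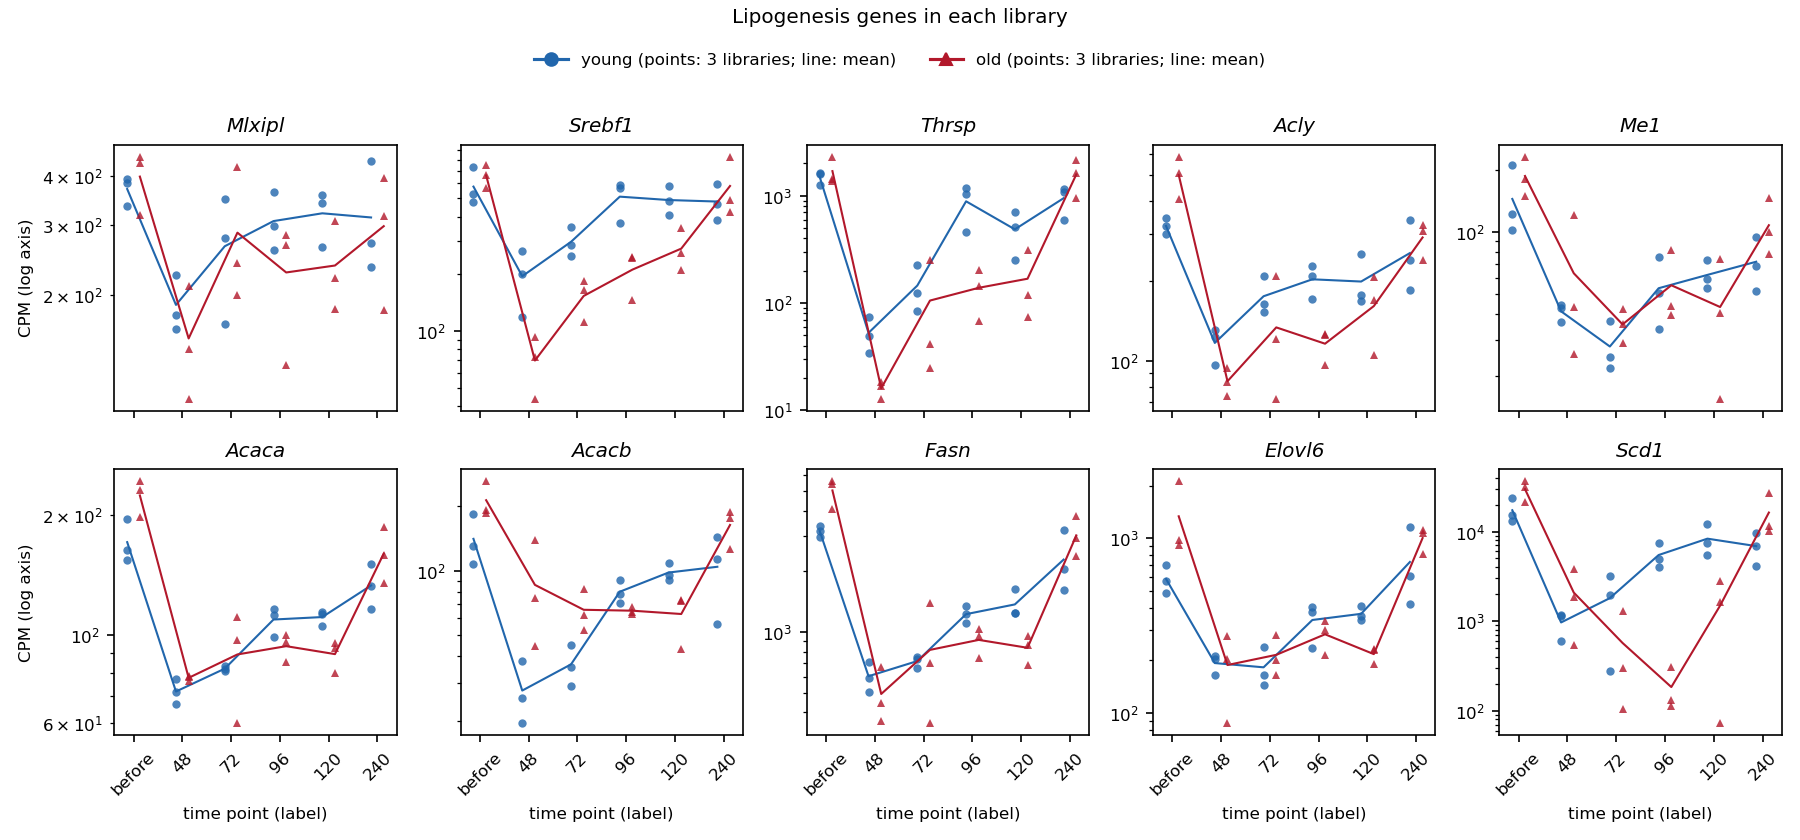
CPM of each of the 10 genes (log axis) in every library at the 6 time points, with young libraries as blue circles, old ones as red triangles and lines through the means of 3. All 10 genes were lower at 48 than before in both ages. The mean of Scd1 was lowest in old mice at 96, where its libraries had 112 to 309 CPM. Its lowest single old libraries had 104 CPM at 72 and 72.3 CPM at 120.

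Of the regulators, Srebf1 stood at 525, 729.7 and 478 CPM before in young mice and at 200.5, 264 and 119 CPM at 48. In old mice it went from 750.2, 668 and 567 CPM to 43.8, 93.0 and 72.8 CPM. All 3 old libraries at 48 were below all 3 young ones. Its log2 fold change was -1.57 ± 0.31 in young mice (edgeR, adjusted p = 0.000372). The old libraries gave -3.24 ± 0.33 (adjusted p = 5.20e-07). Mlxipl, the carbohydrate-responsive factor, changed least of the 10 in young mice at 48, by -0.97 ± 0.32 (adjusted p = 0.0303). Its 3 young libraries went from 393, 382 and 335 CPM to 177, 224 and 163 CPM. The Mlxipl call was lost with total-count scaling (adjusted p = 0.0598), with no filter on low counts (0.0616), over the 24 libraries lacking Y-linked transcripts (0.200) and without any 1 of young before replicates 1 and 2 or young 48 replicates 1 and 3. In old mice the Mlxipl log2 fold change was -1.36 ± 0.33 (adjusted p = 0.00361).

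Thrsp had the largest change of the 10 at 48 in both ages. In young mice it stood at 1635, 1591 and 1245 CPM before and at 49.7, 74.2 and 34.2 CPM at 48. In old mice it stood at 1362, 1423 and 2299 CPM before and at 18.4, 12.8 and 17.0 CPM at 48, the latter from 63 to 83 counts per library. Its level at 48 was thus 3.54% of that before in young and 0.948% in old mice. The log2 fold changes were -4.82 ± 0.73 (adjusted p = 2.99e-05) and -6.72 ± 0.81 (adjusted p = 5.20e-06).

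The enzymes that feed the synthase had smaller falls than Thrsp. Acly, which makes cytosolic acetyl-CoA from citrate, went to 36.2% of its level before in young and 16.7% in old mice at 48, and Me1, a source of NADPH, to 28.6% and 33.8%. Acaca, the cytosolic acetyl-CoA carboxylase, had 195, 155 and 163 CPM before and 66.8, 77.6 and 71.7 CPM at 48 in young mice, and 232, 197 and 243 CPM before and 78.2, 79.0 and 76.7 CPM at 48 in old mice. Its log2 fold changes of -1.25 ± 0.16 and -1.52 ± 0.16 had the smallest standard errors of the 10 genes. Acacb, the carboxylase isoform tied to mitochondria, whose product restrains fatty acid oxidation, had log2 fold changes of -2.35 ± 0.34 in young and -1.31 ± 0.32 in old mice.

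Fasn, which assembles palmitate, went from 3351, 3181 and 2983 CPM before to 595, 714 and 504 CPM at 48 in young mice. In old mice it went from 5610, 4092 and 5446 CPM to 447, 669 and 364 CPM. Levels at 48 were 19.1% and 9.77% of those before. Elovl6, which lengthens palmitate, had log2 fold changes of -1.60 ± 0.36 in young and -2.83 ± 0.37 in old mice. Scd1 went from 23609, 12971 and 15251 CPM to 593, 1171 and 1133 CPM in young mice, and from 36407, 21605 and 31130 CPM to 1866, 3838 and 541 CPM in old mice. Its 3 old libraries at 48 were spread over a wide range and overlapped the young ones.

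The calls in old mice at 48 rest in part on the spread shared by all 12 groups. A fit of only the old libraries before and at 48 called 5 of the 10, namely Srebf1, Fasn, Acaca, Acly and Thrsp, and 1.79% of all genes, whereas Scd1 and Elovl6 had an adjusted p of 0.0508 and Mlxipl 0.0610, Acacb 0.124 and Me1 0.156. Without any 1 old library at 48, 9 or 10 members were called.

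At 72 the genes were still low. In both ages 9 of 10 were called lower, all but Mlxipl, against 17.4% of all genes called in young and 12.4% in old mice. Mlxipl was at 71.6% of its level before in young and 72.1% in old mice, with values that overlapped those before. All comparisons with before within an age share the same 3 libraries before.

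After 72 the numbers of calls in the 2 ages parted. In young mice 2 of 10 members were called at 96 (Fasn and Acaca, both lower, against 1.4% of all genes) and 0 of 10 at 120 (0.581% of all genes). At 120, 5 members had an unadjusted p under 0.05, as did 1606 of all genes. DESeq2 called 2 members there, and the shares of all genes given throughout are those of edgeR alone. In old mice 9 of 10 were called lower at 96 (6.82% of all genes) and 9 of 10 at 120 (3.87%), again all but Mlxipl. The members' median log2 fold change in young mice was -0.76 at 96 and -0.68 at 120, and in old mice it was -1.94 and -1.93. Over all genes the 4 medians lay between -0.02 and 0.01. Still wholly below before in young mice lay 8 members at 96 and 7 at 120, beside 1649 and 1471 of 13436 genes. The same held for all 10 at both time points in old mice, beside 1860 and 1458 genes. The 2 young calls at 96 were absent without any 1 of the 6 libraries compared, and a fit of those 6 alone called 5, with 4.86% of all genes. In old mice at 120, leaving out replicate 1 reduced the calls from 9 to 5.

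**Figure D2:**
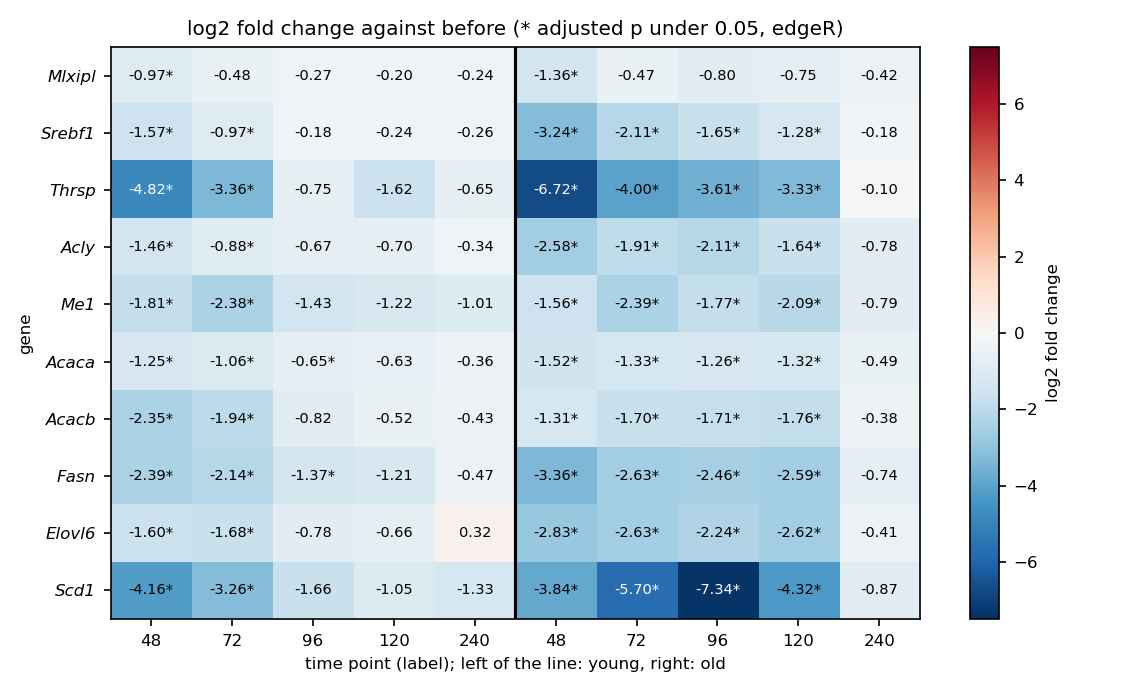
Log2 fold change of each gene (rows) against before at each later time point (columns), young left and old right of the line, with an asterisk where the adjusted p was under 0.05. At 96 and 120, 9 genes are marked in old mice, beside 6.82% and 3.87% of all genes called. In young mice 2 and 0 are marked, beside 1.4% and 0.581%. The direct edgeR test of whether the change differed with age called 0 members at 96 and 0 at 120.

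Of the 10 genes, Scd1 was at the smallest share of its level before in old mice at 72, 96 and 120. Its 3 old libraries had 104, 302 and 1305 CPM at 72, 130, 309 and 112 CPM at 96, and 72.3, 1626 and 2769 CPM at 120. Young libraries had 3187, 1950 and 279 CPM at 72, 4988, 7423 and 3983 CPM at 96, and 12083, 5460 and 7423 CPM at 120. The ages did not overlap at 96 or at 120. At 96 the old level was 0.618% of that before (log2 fold change -7.34 ± 1.17, adjusted p = 0.000683), and the young level was 31.6% (-1.66 ± 0.91, adjusted p = 0.393). At 240 old libraries reached 27095, 11598 and 10139 CPM, which overlapped those before.

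Srebf1 and Thrsp at 96 were lower in every old library than in every young one. Srebf1 in young mice stood at 371, 591 and 571 CPM at 96, which overlapped its values before (88.5% of that mean, adjusted p = 0.841). The sign of that change turned in 1 of 47 alternatives, without young before replicate 2. In old mice it stood at 146, 241 and 246 CPM at 96 and at 211, 257 and 349 CPM at 120, and was called lower at both. Thrsp in young mice had 1173, 1029 and 458 CPM at 96 but 251, 508 and 699 CPM at 120. In old mice it had 68.7, 144 and 203 CPM at 96 and 74.3, 119 and 312 CPM at 120, and its log2 fold changes were -3.61 ± 0.69 and -3.33 ± 0.68. Fasn at 120 was at 43.3% of its level before in young (adjusted p = 0.0717) and at 16.6% in old mice (adjusted p = 3.81e-05).

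At 240, 0 of 10 members were called in young mice (0.246% of all genes) and 0 of 10 in old mice (0.156%) by edgeR or by DESeq2. Unadjusted p-values under 0.05 were found for 2 members in young (Acaca and Me1) and 3 in old mice (Fasn, Acaca and Acly), all of them lower than before, beside 5.11% and 7.67% of all genes. The median log2 fold change was -0.40 in young and -0.45 in old mice. In each age 4 members still lay wholly below their values before, beside 6.56% of all genes in young and 7.1% in old mice. They were Acaca, Scd1, Thrsp and Me1 in young and Fasn, Acaca, Acly and Me1 in old mice, and Scd1 in young mice was at 39.8% of its level before.

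The design also asks whether old and young livers differed at a given time point. Before regeneration, the mean of every member was higher in old mice, from 107% of the young mean for Mlxipl to 228% for Elovl6, and 5 members (Fasn, Acaca, Acacb, Acly and Elovl6) had no overlap between the ages, against 8.04% of all genes that lay wholly higher in old mice. None was called by edgeR or DESeq2 (0.0595% of all genes called by edgeR), and 4 had an unadjusted p under 0.05, beside 6.91% of all genes. The median log2 difference was 0.49, beside 0.01 over all genes, and those of Thrsp and Mlxipl changed sign in 2 and 1 of 47 alternatives. Compared only among libraries with Y-linked transcripts, 1 in each age, 3 members (Thrsp, Me1 and Mlxipl) were lower in old mice before. Only among those without, 0 were. Elovl6 had 702, 570.3 and 485 CPM in young and 914, 975 and 2124 CPM in old libraries (log2 difference 1.19 ± 0.35, adjusted p = 0.342).

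At 48, 2 members were called between the ages, in opposite directions, against 11.2% of all genes. Srebf1 was lower in old mice, at 35.9% of the young mean (log2 difference -1.48 ± 0.31, adjusted p = 0.00209). Acacb was higher in old mice, at 74.7, 139 and 44.6 CPM against 25.5, 38.0 and 19.5 CPM (log2 difference 1.64 ± 0.33, adjusted p = 0.00191). Neither gene overlapped between the ages, as was so for 12.8% of all genes lower and 8.8% higher in old mice. Thrsp and Acly did not overlap either, and the Thrsp difference of -1.71 ± 0.67 had an adjusted p of 0.101. A fit of only the 6 libraries at 48 called 0.00819% of all genes, and neither Srebf1 (adjusted p = 0.143) nor Acacb (0.165). Without old 48 replicate 2, which had the highest Acacb value, the Acacb difference was 1.097 (adjusted p = 0.0409).

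At 72 edgeR and DESeq2 called 0 of 10 members between the ages, and edgeR called 0.0% of all genes. At 72, 2 members had an unadjusted p under 0.05 (4.86% of all genes), Srebf1 with a log2 difference of -0.95 ± 0.30 and Acacb with 0.84 ± 0.33. At 96, 1 member was called, Scd1, which was lower in old mice (log2 difference -4.89 ± 1.04, adjusted p = 0.0482, 0.171% of all genes called). Srebf1 (-1.28 ± 0.31, adjusted p = 0.0526) and Thrsp (-2.67 ± 0.66, adjusted p = 0.0644) lay just above the threshold, and neither overlapped between the ages. With 1 library left out, the count at 96 was 0 in 22 of 36 fits, 1 in 8, 2 in 5 and 3 in 1, and DESeq2 called 3 members. At 120 all 10 differences were below 0, with 0 calls by edgeR (0.0% of all genes) or DESeq2 and 5 unadjusted p-values under 0.05 (9.83% of all genes). Of the 10, 6 lay wholly lower in old mice at 96 and 6 at 120, beside 1434 and 1159 of 13436 genes. At 240, where 0 members were called (0.0149% of all genes) by either tool and 0 had an unadjusted p under 0.05 (4.92%), 9 of 10 differences were above 0, all but Mlxipl. Those of Srebf1, Acly and Mlxipl changed sign in 2, 1 and 3 of 47 alternatives.

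**Figure D3:**
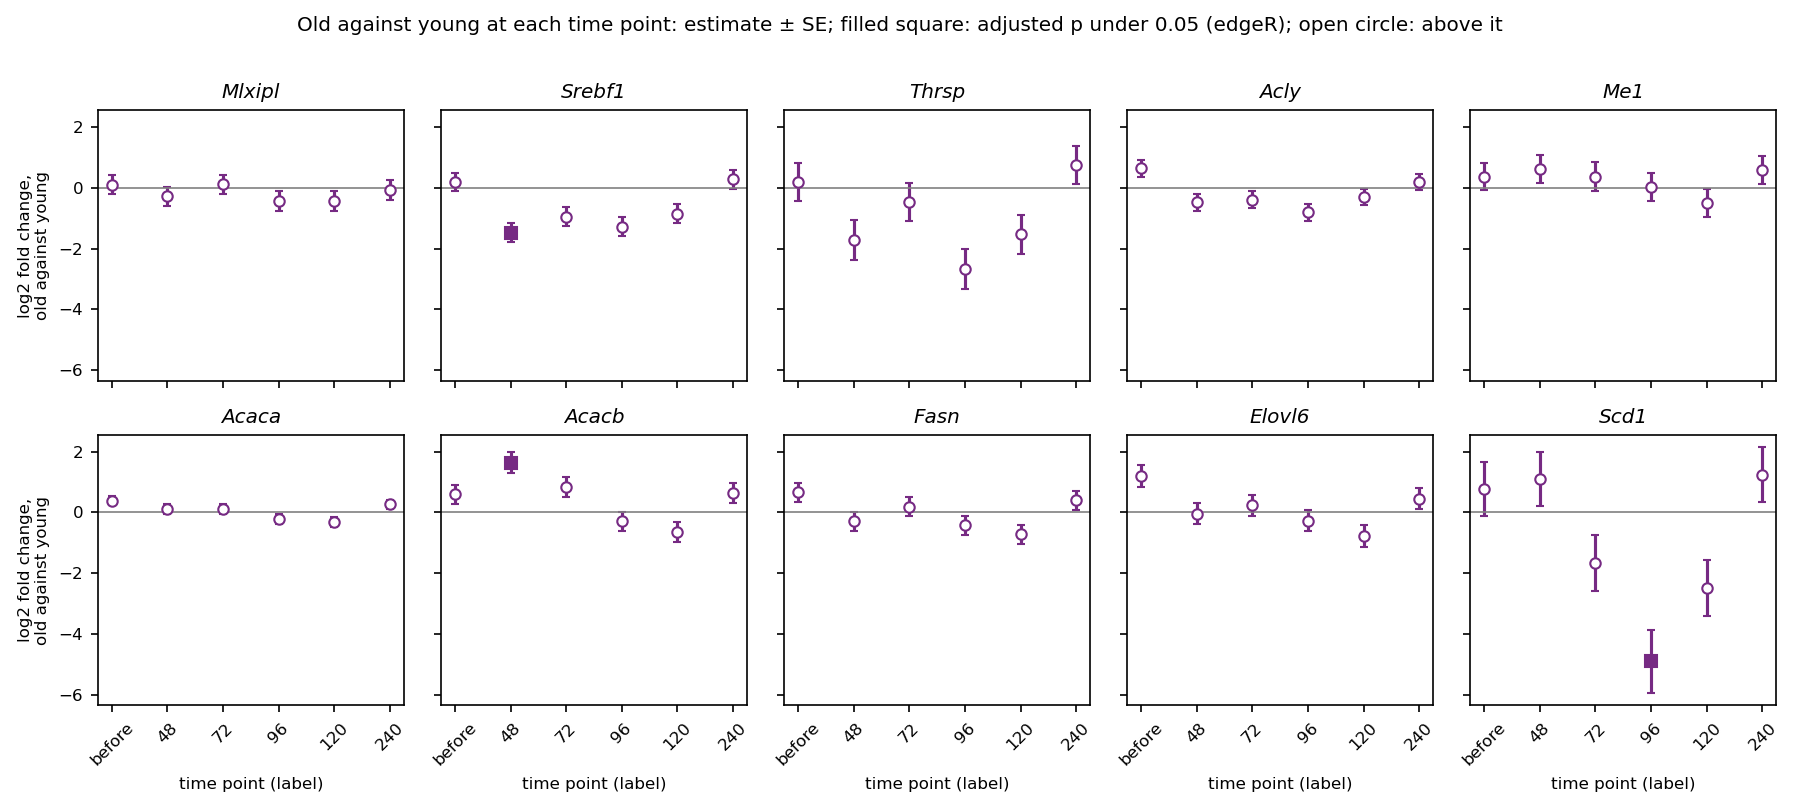
Log2 fold change of old against young mice (± SE) for each gene at the 6 time points; filled squares mark an adjusted p under 0.05. The 3 filled squares are Srebf1 at 48 (-1.48), Acacb at 48 (1.64) and Scd1 at 96 (-4.89).

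Averaged over the 6 time points, 3 members were called between the ages, against 5.98% of all genes. Srebf1 was lower in old mice (log2 difference -0.68 ± 0.12, adjusted p = 0.000870), and lower at 4 of the 6 time points. Thrsp was at -0.91 ± 0.26 (adjusted p = 0.0344) and Acacb at 0.46 ± 0.13 (adjusted p = 0.0327). Thrsp was lower in old mice at 4 time points and higher at 2, and Acacb was higher at 4 and lower at 2. Of 46 alternatives the Srebf1 call was lost in 1, a replicate block whose contrasts between the ages were taken at replicate number 1, whereas that of Acacb was lost in 14 and that of Thrsp in 16.

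A direct test of whether the change from before differed with age over all 5 later time points called 3 members, Scd1 (adjusted p = 0.0254), Acacb (0.0290) and Srebf1 (0.0308), against 2.76% of all genes. With 1 library left out the count ranged from 0 (without young 48 replicate 1) to 5 (without old 72 replicate 3). It was 1 without young 48 replicate 3, without old 48 replicate 2 or with no filter on low counts, and 0 over the 24 libraries lacking Y-linked transcripts. In that test 8 members had an unadjusted p under 0.05 (14.1% of all genes), all but Me1 and Mlxipl. Taken at single time points, the change of Srebf1 at 48 was larger in old mice (log2 difference of changes -1.67 ± 0.43, adjusted p = 0.0458, 1.38% of all genes called). That call was lost in 22 of 47 alternatives. At 96 and at 120 the difference of changes was below 0 for all 10 members, with medians of -1.27 and -1.14 beside -0.02 over all genes at each, and 7 unadjusted p-values under 0.05 at each (9.21% and 6.89% of all genes). By edgeR 0 members were called at 72 (0.0% of all genes), 96 (0.0149%), 120 (0.00744%) and 240 (0.0%), with 2 and 0 unadjusted p-values under 0.05 at 72 and 240 (4.55% and 1.33% of all genes), and DESeq2 called 0, 1, 1 and 0. The largest differences of changes were those of Scd1 at 96 (-5.67 ± 1.34, adjusted p = 0.2599) and at 120 (-3.26 ± 1.28, adjusted p = 0.637). All these differences use the same libraries before, in which the old means were higher.

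The levels were also compared within the libraries with and without Y-linked transcripts, as differences of mean log2(CPM + 1) with no test. Each group held 1 library with Y-linked transcripts, so a difference in that part sets 1 library against 1 other. At 48, 72 and 120 all 10 members were lower than before in both parts and both ages. The median differences in young mice at 48 were -2.31 with and -1.42 without Y-linked transcripts, and in old mice they were -2.19 and -2.71. Between the ages at 48, Srebf1 was at -1.42 and -1.47 and Acacb at 1.89 and 1.31, and at 96 Scd1 was at -5.82 and -4.57. Other differences between the ages turned sign with the split. At 72, 3 of 10 members had the same sign in both parts, and Scd1 was at 2.22 with and -3.81 without Y-linked transcripts. At 120, 8 of 10 had the same sign, and Thrsp was at 0.31 and -2.65. Scd1 itself was higher in the library with Y-linked transcripts in 10 of the 12 groups, the most of the 10 members. Its median difference was 0.74, with a range from -3.15 to 3.00. The other members were higher there in 3 groups (Mlxipl) to 9 groups (Acly).

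Levels of the members were correlated over the 36 libraries. The median Pearson correlation of log2(CPM + 1) over the 45 pairs was 0.749, from 0.322 for Me1 with Mlxipl to 0.971 for Fasn with Acaca. Within groups, after group means were removed, the median was 0.257, and Fasn with Acaca had 0.795. Mlxipl had the lowest correlation with the mean of the others (0.596) and Fasn the highest (0.969). These points share libraries, depth and group structure, so the values are a description.

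The gene outside the members whose pattern was most like their mean was Acss2, which makes cytosolic acetyl-CoA from acetate (r = 0.954 over 36 libraries, among 10274 candidates). Aacs, the acetoacetyl-CoA synthetase of the cytosol, was the second (r = 0.925). The next 8 were Snrk, Tm7sf2, a sterol reductase, Khk, the fructokinase, Hcn3, Pcyt2, Mid1ip1, a partner of Thrsp and acetyl-CoA carboxylase, Qdpr and Shpk, with r from 0.879 to 0.901. Acss2 stood at 272, 173 and 293 CPM before and 40.9, 67.8 and 30.8 CPM at 48 in young mice, and at 338, 324 and 489 CPM and 19.3, 15.0 and 27.4 CPM in old mice.

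The counts in the lists that follow stand beside 21.9% of all genes called at 48 in young mice, 9.79% lower, and 24.1% called in old mice. The genes called lower in old mice numbered 1617 of 13436. Of 21 regulators of lipogenesis tested, 7 fell and 0 rose at 48 in young mice. The largest falls were those of Ppargc1b, a coactivator of SREBP-1 (-2.51), and Mid1ip1 (-1.59). In old mice at 48, 5 fell and 2 rose. Insig1 (-2.17) and Mid1ip1 (-2.15) fell most, and Insig2, which retains SREBP in the endoplasmic reticulum, rose by 2.06 on the log2 scale, as did Mbtps1 by 0.34. In young mice Insig2 was at 0.12 (edgeR, adjusted p = 0.865). It was higher in old than in young mice at 48 by 1.497 (adjusted p = 0.0117), a call that was lost without young 48 replicate 1 or old 48 replicate 2, and the test of a difference in change gave an adjusted p of 0.0637. The liver X receptors Nr1h3 and Nr1h2, known activators of Srebf1, were called at neither age. The median of the list was -0.20 in young and -0.06 in old mice, near that of all genes.

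Of 12 tested genes of glucose entry and glycolysis, 5 fell at 48 in young mice, led by Pklr, the liver pyruvate kinase and a ChREBP target (-2.61), and Txnip (-2.37). In old mice 4 fell, led by Pklr (-1.98) and Khk (-1.79), and 0 rose at either age. Of 11 genes of acetyl-CoA and NADPH supply, 3 fell in young (Acss2, Idh1 and Slc25a1) and 4 in old mice (these and Mdh1), and 0 rose. Of 9 genes of triglyceride synthesis, 5 fell in young mice at 48 (Pnpla3, Lpin1, Lpin2, Gpam and Dgat2), while in old mice 3 fell (Pnpla3, Gpam and Dgat2) and 2 rose (Lpin3 and Agpat3). Of 15 other genes of elongation and desaturation, 3 fell and 1 rose in young and 4 fell and 3 rose in old mice. The young share of calls in that list lies near the 21.9% of all genes. In young mice, leaving out young before replicate 1, young 48 replicate 1 or young 48 replicate 3 reduced the calls among regulators from 7 to 4, 4 and 3. Without young 48 replicate 3 there were 2 calls among elongation genes and 3 among glucose genes, and the latter count was also 3 without young before replicate 1 or 2. In old mice, leaving out old 48 replicate 2 moved the triglyceride calls from 5 to 3 and the supply calls from 4 to 7, and leaving out old 48 replicate 3 moved the glucose calls from 4 to 7. A fit of only the old libraries before and at 48 called 2 regulators, 2 supply genes, 0 elongation genes, 1 triglyceride gene and 2 glucose genes.

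**Figure D4:**
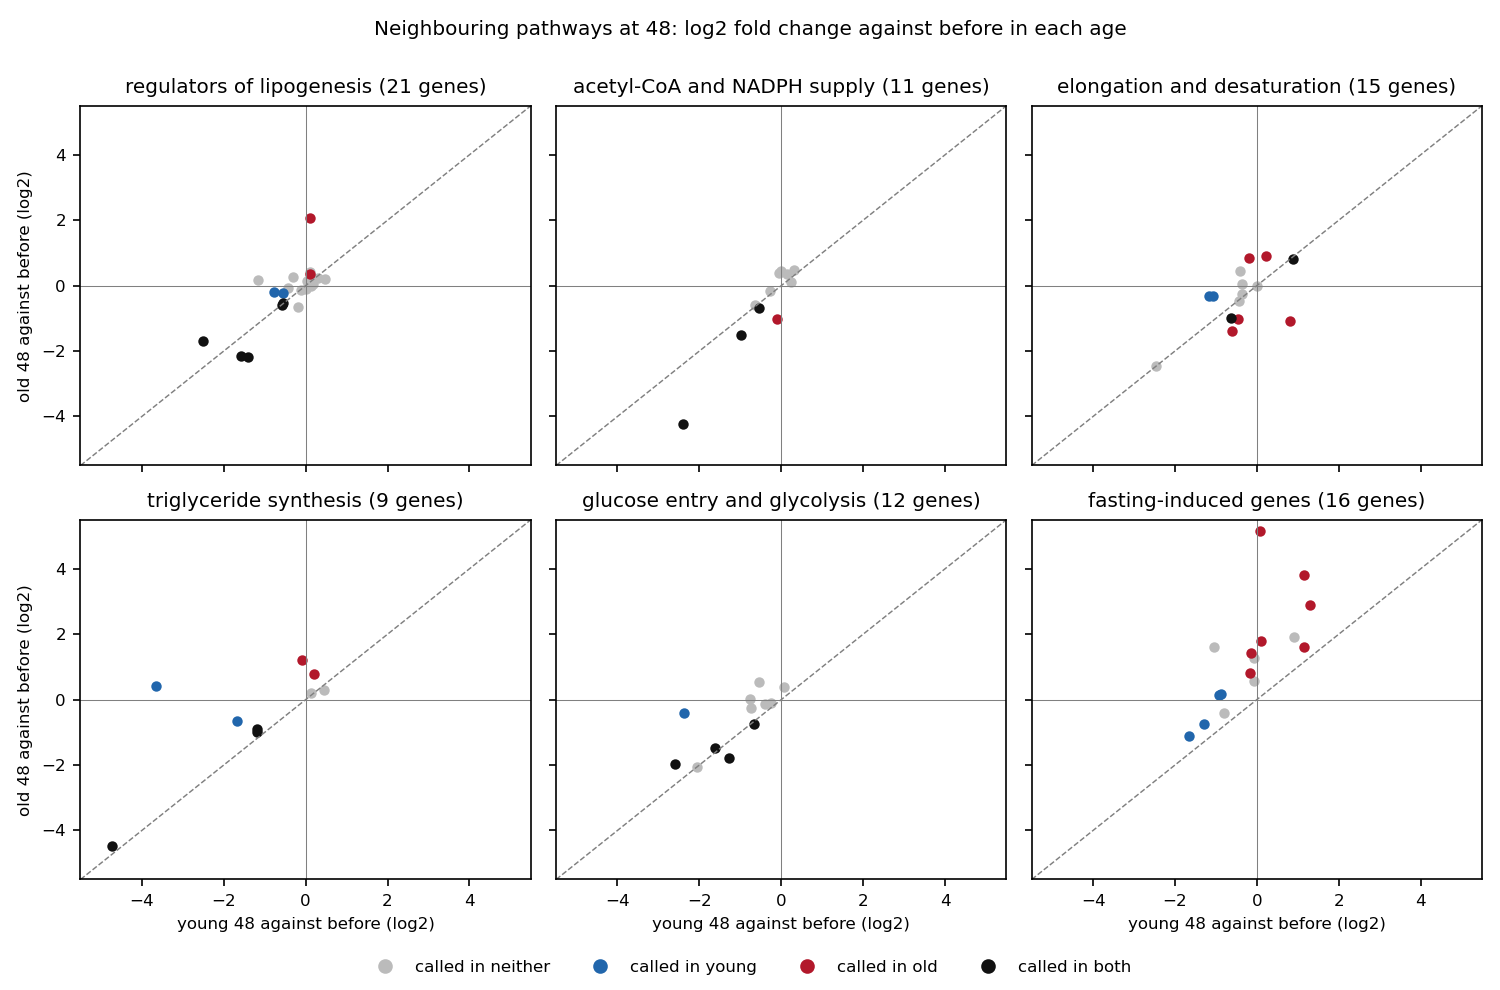
Log2 fold change at 48 against before in young (x axis) and old mice (y axis) for the genes of 6 lists; colour shows the age in which a gene was called. The fasting-induced genes called in old mice lie above 0 on the y axis, with Fgf21 highest at 5.17.

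The feeding state of the mice is not given in the labels, and its part in the lipogenic genes' change was not tested. Of 16 genes known to rise in fasting, 7 rose and 0 fell at 48 in old mice. Of all 13436 genes, 1626 were called higher there, and 24.1% were called in either direction. In young mice 0 rose and 4 fell, most of all G6pc (-1.65) and Ppara (-1.30), a count that was 1 or 2 without any 1 of young before replicates 1 and 2 and the 3 young libraries at 48. The largest rises in old mice were those of Fgf21, a hormone secreted by the fasted liver (5.17 on the log2 scale), and Pdk4, which shuts off pyruvate oxidation (3.82). Fgf21 had 163, 21.9 and 40.3 CPM in old and 4.09, 2.07 and 0.986 CPM in young libraries at 48. Pdk4 had 128, 1933 and 31.3 CPM in old and 65.9, 53.3 and 34.2 CPM in young libraries, so that old replicate 2 stood far above the rest and the ages overlapped. Old libraries before had 12.7, 27.9 and 107 CPM of Pdk4, which overlapped those at 48. Between the ages at 48, 5 of the 16 were called, all higher in old mice. Of all genes, 11.2% were called in either direction, and 594 of 13436 were called higher in old mice. The direct test of a difference in change at 48 called neither Fgf21 (adjusted p = 0.121) nor Pdk4 (0.308). Without old 48 replicate 2 the calls went from 7 to 3 against before and from 5 to 1 between the ages. They went to 4 against before without old before replicate 2 and to 2 between the ages without young 48 replicate 3, and fits restricted to the groups in question called 1 and 0.

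Among the members, old 48 replicate 2 had the highest value of its group for 6 (Srebf1, Fasn, Acaca, Acacb, Scd1 and Me1) and the lowest for the other 4. The sum over 9 adipocyte markers was 22.9 to 266 CPM in old mice at 48, against 22.4 to 80.8 CPM in old mice before. The markers did not move together. Lipe was at 11.7 to 17.8 CPM at 48 and 13.5 to 18.1 CPM before. Cfd reached at most 1.78 CPM at 48 and 28.6 CPM before, and Adrb3 2.66 and 6.39 CPM. Of the 5 tested, 2 rose, Cidec and Fabp4. Cidec, a lipid droplet protein that steatotic hepatocytes also make, had 179, 213 and 6.75 CPM, while the 4 defining markers Adipoq, Lep, Retn and Adrb3 summed to 1.01 to 2.66 CPM in those libraries. The part of this difference in the members' values was not tested.

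Of 14 circadian clock genes, 10 fell and 2 rose at 48 in young mice and 8 fell and 3 rose in old mice. The time of day of sampling is not given in the labels, and its part in the lipogenic genes' change was not tested. Of 10 proliferation genes, 10 rose at 48 in young and 3 in old mice. Of 7 hepatocyte markers, 1 fell at 48 in young mice (Tat, by 1.07 on the log2 scale) and 3 in old mice (Alb by 0.63, Ttr by 0.93 and Cps1 by 1.03). Some markers of other liver cells fell at 48 in old mice. They were 3 of 7 for Kupffer cells and macrophages (Vsig4, Adgre1 and Csf1r) and 1 of 5 for sinusoidal endothelium (Kdr). Of the T and B cell list, the 2 tested fell (Cd79b and Ms4a1), both B cell markers, and no T cell marker was tested. That list summed to only 0.608 to 4.70 CPM in old mice at 48 and 6.84 to 17.0 CPM before. In young mice 1 macrophage marker rose (Marco) and 2 endothelial markers fell (Kdr and Pecam1). Their part in the members' change was not tested.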

How the data were processed

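Total RNA from C57BL/6JN mouse livers was sequenced in 36 libraries after ribosomal RNA was depleted, per the labels. The deposited values are whole-number counts per gene symbol, 1 table per library, not normalized. The submitters' processing notes name bcl2fastq 2.20.0, Trimmomatic 0.39, FastQC 0.11.9, STAR 2.7.5b, SAMtools 1.10, Picard 2.20.8, deepTools 3.5.0 and featureCounts, with no order or role. The annotation and the strand setting are not given in the sources used here. The tables held 0 spike-in rows, so values show shares of RNA, not amounts per cell, and 27 rows with symbols that read as dates were kept as they stood.

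The tests used edgeR 4.0.16 (R 4.3.3). TMM factors ran from 0.930 to 1.133, filterByExpr on the 12 groups left 13436 genes including all 10 members, and a quasi-likelihood fit with 1 mean per group shared its spread over all groups (common biological coefficient of variation 24.7%). The spread was estimated robustly. Robust estimation was chosen after the results of a fit without it had been seen, and that first fit is kept as an alternative. Benjamini-Hochberg adjustment ran over all genes within each comparison. The script was tested on simulated data. The series' design text calls the libraries of a group biological replicates.

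The 10 members and all lists were chosen with earlier results of these data known, and the promoter motifs and the analysis by Y-linked transcripts (over 10 CPM) were added after the data had been seen. Of each list described in a comparison, the 2 called genes with the largest rise and fall are named. Some list genes are counted but not reported here by name. Other list genes are named because 5 or fewer were called, or were singled out after their values were seen (Insig2 in young mice, Nr1h3, Nr1h2, Cidec, Fgf21 and Pdk4 by library). Genes most like the members were the 10 of highest correlation with the mean of the members' z-scored log2(CPM + 1), among genes with a mean of at least 5 CPM, with predicted genes left out. As alternatives, the scaling (median of ratios or total count), the filter and the tool (DESeq2 1.42.0) were changed, a replicate block or a term for Y-linked transcripts was added, the fit was restricted to the groups in question, and every library was omitted in turn. Where a library is left out, its group keeps 2 and shares the spread of all groups.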

Additional observations from a re-analysis of the deposited data

Results flagged for a closer look

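The test of whether the change since before differed with age over all 5 later time points called 3 of the 10 genes, against 2.76% of all genes, and the test at 48 called 1 of them (1.38%). The count over the 5 time points was 0 to 5 with 1 library left out and 1 with no filter on low counts. At 48 the count was 0 in 19 of 36 fits with 1 library left out. Srebf1 at 48 had a log2 difference of changes of -1.67 (old minus young, edgeR, adjusted p = 0.0458), with changes of -3.24 in old and -1.57 in young mice, and an adjusted p of 0.0308 over the 5 time points. Acacb had an adjusted p of 0.0290 over the 5 time points, with a smaller fall in old than in young mice at 48 (-1.31 against -2.35) and a larger one at 120 (-1.76 against -0.52, the latter not called). Scd1 had an adjusted p of 0.0254, with changes of -7.34 in old mice and -1.66 in young mice at 96, the latter not called. Groups of 3 libraries are too small for a test of single outlying samples.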

How the results depend on the processing

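None of the 65 called member values changed sign under any alternative, while 30 of 155 values that were not called did. Of those the text gives a direction for, Srebf1 in young mice at 96 became 0.027 without young before replicate 2, the highest with 1 library left out (lowest -0.297). Between the ages before, Thrsp became -0.034 and Mlxipl -0.170 under the block coded against replicate number 1, and Thrsp ranged from -0.106 (without old before replicate 3) to 0.308 with 1 library left out. Between the ages at 240, Acly became -0.0076 under that block, and Srebf1 -0.204 and Mlxipl 0.0862 over the 24 libraries lacking Y-linked transcripts. With 1 library left out there, Srebf1 ranged from -0.0715 (without old 240 replicate 1) to 0.455 and Mlxipl from -0.327 to 0.2375 (without young 240 replicate 2), and it was also above 0, at 0.180, without old 240 replicate 1. With total-count scaling, 1 member was called in young mice at 96 and 0 between the ages at 96. That scaling moved the median of all genes by up to 0.197 on the log2 scale (young mice at 72). Median-of-ratios scaling called 1 in young mice at 120. With no filter on low counts, 0 were called between the ages at 96, 1 averaged over time points, 0 in the difference of changes at 48 and 1 in that over 5 time points. DESeq2 called 2 in young mice at 120, 3 between the ages at 96 and 1 in the difference of changes at 96 and at 120. The shares of all genes that DESeq2 called are not reported here, so its counts of members stand without that comparison. Fits of only the groups compared called 5 in young mice at 96, 2 in young mice at 120, 5 in old mice at 48, 0 between the ages at 48, and 0 and 1 in the difference of changes at 48 and 96. They were not run for the averaged test and the test over 5 time points. The cause of these shifts was not tested.

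Alternatives chosen after seeing the data were the 24 libraries lacking Y-linked transcripts, the fit without robust estimation and the coding of the replicate block. The 24 libraries gave 0 calls in young mice at 96, 0 and 1 between the ages at 96 and 120, and 0 in the difference of changes at 48 and over 5 time points, with fewer samples. Omitting robust estimation moved no count of members by over 1.5 times. A term for Y-linked transcripts called 2 between the ages at 96.

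Deviations of same-numbered libraries had a mean correlation of 0.03 in young and 0.07 in old mice. They ranged from -0.345 to 0.523 and from -0.359 to 0.561. Libraries of other numbers had means of -0.009 and -0.033. These correlations cannot show whether samples with the same replicate number shared anything beyond the number. A replicate block nested in age, coded to sum to 0 within each age, called 3 members between the ages at 96. It moved no other count of members by over 1.5 times. A block coded against replicate number 1, so that contrasts between the ages were taken at that number, was run first and was replaced after its result had been seen. It called 3 between the ages at 96 and 0 averaged over time points.

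With each library left out in turn, the members called ranged from 8 to 10 in young mice at 48, 6 to 9 at 72, 0 to 2 at 96 and 0 to 2 at 120. In old mice they ranged from 9 to 10 at 48, 8 to 9 at 96 and 5 to 9 at 120. Between the ages they ranged from 2 to 3 at 48, 0 to 3 at 96 and 1 to 4 averaged over time points. The averaged count was 1 without any 1 of young 72 replicate 2, young 96 replicate 2, young 120 replicate 3, old 48 replicate 2 and old 120 replicate 1. In the difference of changes they ranged from 0 to 1 at 48 and from 0 to 5 over 5 time points. The latter count was 0 without young 48 replicate 1, 1 without young 48 replicate 3 or old 48 replicate 2, and 5 without old 72 replicate 3. With 2328233 to 6034446 counts per library, Thrsp in old mice at 48 rested on 63 to 83 counts.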
